A study of Mus musculus with 56 samples.

Results

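The interferon-inducible GTPases are small and large GTP-binding proteins that mouse cells make in quantity when they sense interferon. The 9 genes described here were taken by name (Iigp1, Igtp, Irgm1, Irgm2, Gbp2, Gbp3, Gbp6, Gbp7 and Gbp10) from the 14871 genes of a muscle RNA sequencing table, and all 9 were present. The mice carried titin mKO, an allele of the giant spring protein of the sarcomere that contains a site for TEV protease, on both copies (HOMO mKO), on 1 copy (HET mKO) or on neither (WT). The tibialis anterior muscle received AAV, an adeno-associated virus carrying the gene for TEV protease fused to GFP, or saline, and was taken 3, 7 or 21 days post injection (dpi). At 3, 7 and 21 dpi, HOMO mKO muscle had 4, 5 and 4 AAV libraries and 4, 4 and 4 saline libraries. HET mKO muscle, sampled at 7 dpi, had 4 AAV and 4 saline libraries. WT muscle had 5, 4 and 4 AAV libraries and 3, 3 and 4 saline libraries on these days, which gave 14 groups and 56 libraries. In WT muscle the protease has no engineered site in titin to act on, so the WT groups show the response to the virus and its cargo without that site. Saline lacks capsid, viral genome and protease alike, and an AAV without the protease is not analysed here, so these components cannot be told apart. No label gives age, sex or strain, or says that libraries came from separate animals, so p-values measure the spread between libraries, which may in part be technical.

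The immunity-related GTPases (IRGs) and the guanylate-binding proteins (GBPs) are 2 families of cell-autonomous defence genes. Interferon gamma, made mainly by T cells and natural killer cells, binds its receptor and activates the JAK kinases, and the signal leads to production of the transcription factor IRF1, which takes part in switching on IRG and GBP genes. The proteins settle on the membranes around intracellular parasites and bacteria and help to break them open. Irgm1, Irgm2 and Igtp (also called Irgm3) are the regulatory IRGs that sit on the cell's own membranes and hold effector IRGs such as Iigp1 inactive there. Gbp2 and its relatives coat pathogen vacuoles and promote activation of inflammatory caspases. In resting skeletal muscle, as in most mouse tissues, these genes are kept low.

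Promoter sequence was available in RefSeq (GRCm38.p6) for 6 of the 9 genes, Igtp, Irgm1, Irgm2, Gbp2, Gbp3 and Gbp7. For Iigp1, Gbp6 and Gbp10 none is shown. The stretches below are printed because they hold the letters of the interferon-stimulated response element (ISRE), a DNA motif read by IRF factors. The ISRE was searched as GAAANNGAAA and the gamma-activated site (GAS), another motif of interferon-responsive promoters, as TTCNNNGAA, on both strands, from 250 bases before to 50 after each annotated start. Capitals mark the matches, and an ISRE on the opposite strand reads TTTCNNTTTC.
Igtp, chr11:58199482-58199571, plus strand: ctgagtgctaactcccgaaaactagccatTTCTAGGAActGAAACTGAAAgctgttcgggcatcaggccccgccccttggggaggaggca
Irgm2, chr11:58214873-58214962, plus strand: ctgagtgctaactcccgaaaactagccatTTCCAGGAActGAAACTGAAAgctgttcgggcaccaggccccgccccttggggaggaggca
Irgm1, chr11:48871401-48871490, minus strand: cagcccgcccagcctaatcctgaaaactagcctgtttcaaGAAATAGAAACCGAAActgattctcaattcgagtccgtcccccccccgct
Gbp2, chr3:142620564-142620653, plus strand: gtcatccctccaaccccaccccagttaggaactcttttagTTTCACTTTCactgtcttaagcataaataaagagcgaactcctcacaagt
Gbp3, chr3:142559959-142560048, plus strand: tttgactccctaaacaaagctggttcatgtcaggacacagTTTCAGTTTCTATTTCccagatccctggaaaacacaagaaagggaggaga
Gbp7, chr3:142530243-142530332, plus strand: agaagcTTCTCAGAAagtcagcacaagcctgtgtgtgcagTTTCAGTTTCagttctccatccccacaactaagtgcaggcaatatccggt

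All 6 promoters held the ISRE letters, which occur in 3.44% of the 32851 mouse promoters searched. The first base of the match lay 34 bases before the start in Igtp, 64 in Irgm2, 59 in Gbp2 and 53 in Gbp7. Irgm1 had 2 overlapping matches, at 30 and 24 bases before the start, and Gbp3 had 2 overlapping matches at 45 and 39. A second annotated start of Gbp3 had no match in its window. The GAS letters, found in 8.3% of all promoters, were present in Igtp at 45 bases before the start, in Irgm2 at 75 and in Gbp7 at 106 and 87. Igtp and Irgm2 shared an unbroken run of 61 bases in this region, while no other pair of the 6 promoters shared more than 13. A match describes these letters only, and binding at these sites was not measured.

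**Figure D1:**
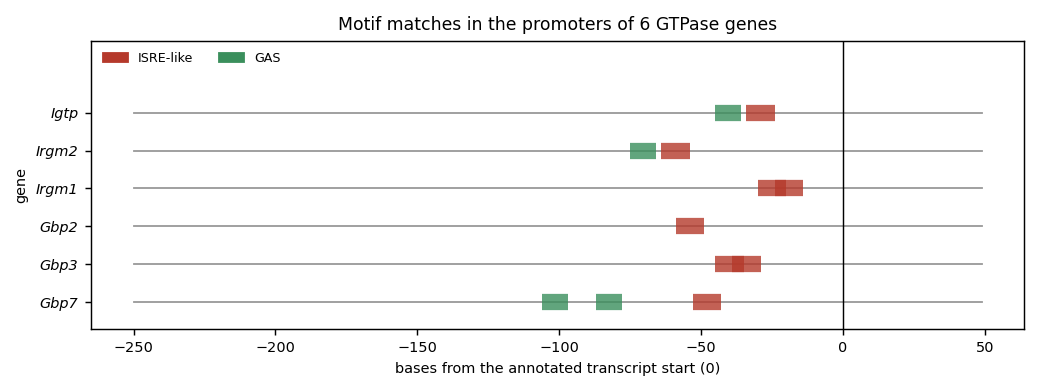
Position of ISRE-like letters (red) and GAS letters (green) in the promoters of 6 GTPase genes, in bases from the RefSeq transcript start at 0; grey lines show the window searched. ISRE matches begin between 64 and 24 bases before the start in all 6 genes, and GAS matches occur in Igtp, Irgm2 and Gbp7.

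The genes lie in 5 places of the mouse genome (GRCm38 coordinates of the GENCODE M21 annotation). Iigp1 is on chromosome 18 (60376027 to 60392634, plus strand). Igtp (58199556 to 58207591, plus strand) and Irgm2 (58199618 to 58222782, plus strand) are neighbours on chromosome 11 whose annotated bodies overlap by 7974 bases, and Irgm1 lies elsewhere on the same chromosome (48861968 to 48871683, minus strand). The RefSeq start used for the Irgm2 promoter above lies beyond this end of Igtp, so the overlap is one of the GENCODE bodies. Gbp7 (142530342 to 142550149), Gbp3 (142560026 to 142573209) and Gbp2 (142620602 to 142638008) follow each other on the plus strand of chromosome 3. Gbp10 (105215699 to 105239533) and Gbp6 (105270702 to 105293698) lie on the minus strand of chromosome 5. Relatives within these arrays share sequence, so reads are divided among them by estimation. Of the 50-base stretches of Gbp10 transcripts, 84.1% occurred also in another gene, 73.3% in Gbp6, and for Gbp6 the share was 70.7%, with 45.9% in Gbp10. Another annotated gene, Gm43302, held 72.1% of the Gbp10 stretches and 65.0% of the Gbp6 stretches. The corresponding share was 12.7% for Gbp7 (10.5% with Gm43802), 11.8% for Igtp, all of it with Irgm2, and 7.77% for Irgm2. It was 3.75% or less for Gbp3, Gbp2, Iigp1 and Irgm1. Values of Gbp6 and Gbp10, taken singly or together, are therefore uncertain, and those of Gbp7, Igtp and Irgm2 in part.

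Saline-injected muscle set the baseline. All 9 genes were detected in every one of the 26 saline libraries, and all 9 passed the filter on low values on the mean of those libraries alone. Values are normalised read counts as deposited. Irgm2 had a saline median of 21.1, with a lowest value of 15.02 and a highest of 50.5. Gbp10 had the lowest median, 2.03, with a range of 0.299 to 7.75. Per kilobase of exon, the order of saline medians was Irgm2 (5.72), Igtp (4.79), Gbp2 (3.54), Irgm1 (3.29), Gbp7 (2.14), Gbp3 (1.99), Iigp1 (1.77), Gbp6 (0.896) and Gbp10 (0.525). The length used was that of all annotated exons of a gene merged, 2022 bases for Igtp and 5823 for Iigp1. An order on this scale thus depends on the annotation, and the length of the transcripts expressed was not measured. The regulatory IRGs Irgm2 and Igtp stood at the top of this scale in saline muscle, Irgm1 just below Gbp2, and the effector Iigp1 in its lower part.

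The libraries held 6.9 M to 27.2 M reads (M, mega; median 21.7 M), and the shallowest was HOMO mKO AAV replicate 2 at 7 dpi. Reads per library ran from 121 to 35489 for Iigp1 and from 5 to 7272 for Gbp10. The identity of the tissue was checked with 8 fast-fibre genes, among them Acta1, the skeletal muscle actin. Their summed level was 54160 to 151700 across the 56 libraries, and no group had any of them at 0. The viral transgene had at most 6 reads in any saline library. Of the libraries, 2 stood apart from their groups in the GTPase genes at 7 dpi and are named here before any comparison. HOMO mKO saline replicate 4 summed to 428 over the 9 genes, whereas the other 3 saline libraries of that group summed to 72.0, 94.1 and 113. WT AAV replicate 1 summed to 522, whereas the other 3 of its group summed to 87.3, 79.6 and 150.4. Results at 7 dpi are given with and without them.

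At 21 dpi all 9 GTPase genes were many times higher in AAV-injected than in saline-injected HOMO mKO muscle. Iigp1, the effector IRG that loads onto parasite vacuoles, measured 403, 1253, 810.4 and 161 in HOMO mKO AAV muscle (replicates 1 to 4), against 10.9, 15.7, 10.4 and 11.7 in HOMO mKO saline muscle. Every AAV library exceeded every saline library by at least an order of magnitude, and replicates 2 and 3 were the highest. The rise was 5.29 ± 0.63 on the log2(value + 1) scale, 39.1-fold (SE of the fit, limma adjusted p = 1.03e-09, n = 4 and 4). Counting over all genes tested, 59.3% were called in this comparison in either direction, 29.7% as higher. In a whole muscle, a change in the number of cells that express a gene and a change in RNA per cell cannot be told apart.

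The regulatory IRGs followed the same order of libraries. Igtp had 228, 713, 522 and 139.5 in HOMO mKO AAV muscle, against 14.7, 12.2, 12.6 and 14.4 in HOMO mKO saline muscle. Irgm2 had 252, 826, 621 and 186 in HOMO mKO AAV muscle, against 29.5, 31.6, 28.1 and 24.6 in HOMO mKO saline muscle. Irgm1 had 158, 335, 252 and 62.8 in HOMO mKO AAV muscle, against 21.0, 23.0, 18.4 and 20.9 in HOMO mKO saline muscle. In each of these genes replicate 2 was the highest AAV library and replicate 4 the lowest, and no AAV library reached down to the saline range. Igtp rose by 4.52 ± 0.49 (limma adjusted p = 1.11e-10), Irgm2 by 3.75 ± 0.40 (limma adjusted p = 7.19e-11) and Irgm1 by 2.98 ± 0.30 (limma adjusted p = 1.64e-11) on the log2 scale.

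Among the GBPs, Gbp10 and Gbp6 changed most. Gbp10 measured 62.7, 257, 179.7 and 27.1 in HOMO mKO AAV muscle, against 0.763, 1.81, 2.10 and 5.30 in HOMO mKO saline muscle, a rise of 4.93 ± 0.52 (limma adjusted p = 4.76e-11). Gbp6 measured 174, 495, 360.3 and 60.8 in HOMO mKO AAV muscle, against 5.46, 9.46, 4.50 and 8.96 in HOMO mKO saline muscle, a rise of 4.75 ± 0.55 (limma adjusted p = 5.17e-10). Reads from the sequence these 2 genes share are divided by estimation, and both also share sequence with Gm43302. Their near-equal changes are therefore not separate measurements. Gbp2, whose protein is recruited to parasite vacuoles, had 146, 176, 177.5 and 50.9 in HOMO mKO AAV muscle, against 9.98, 11.2, 7.20 and 8.39 in HOMO mKO saline muscle. Its first 3 AAV libraries lay close together and replicate 4 well below them, still above all saline libraries. Gbp2 rose by 3.63 ± 0.42 (limma adjusted p = 5.76e-10), Gbp3 by 3.02 ± 0.46 (limma adjusted p = 2.81e-07) and Gbp7 by 2.84 ± 0.41 (limma adjusted p = 8.42e-08). Gbp3 ranged from 27.2 to 87.3 in HOMO mKO AAV muscle and from 5.57 to 8.75 in HOMO mKO saline muscle. Gbp7 ranged from 36.5 to 164 in HOMO mKO AAV muscle and from 11.1 to 13.8 in HOMO mKO saline muscle. The median change of the 9 genes was 3.75, and that of all genes tested was close to 0 at -0.0001. For all 9 the lowest AAV library lay above the highest saline library, which held for 21.5% of all genes tested.

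**Figure D2:**
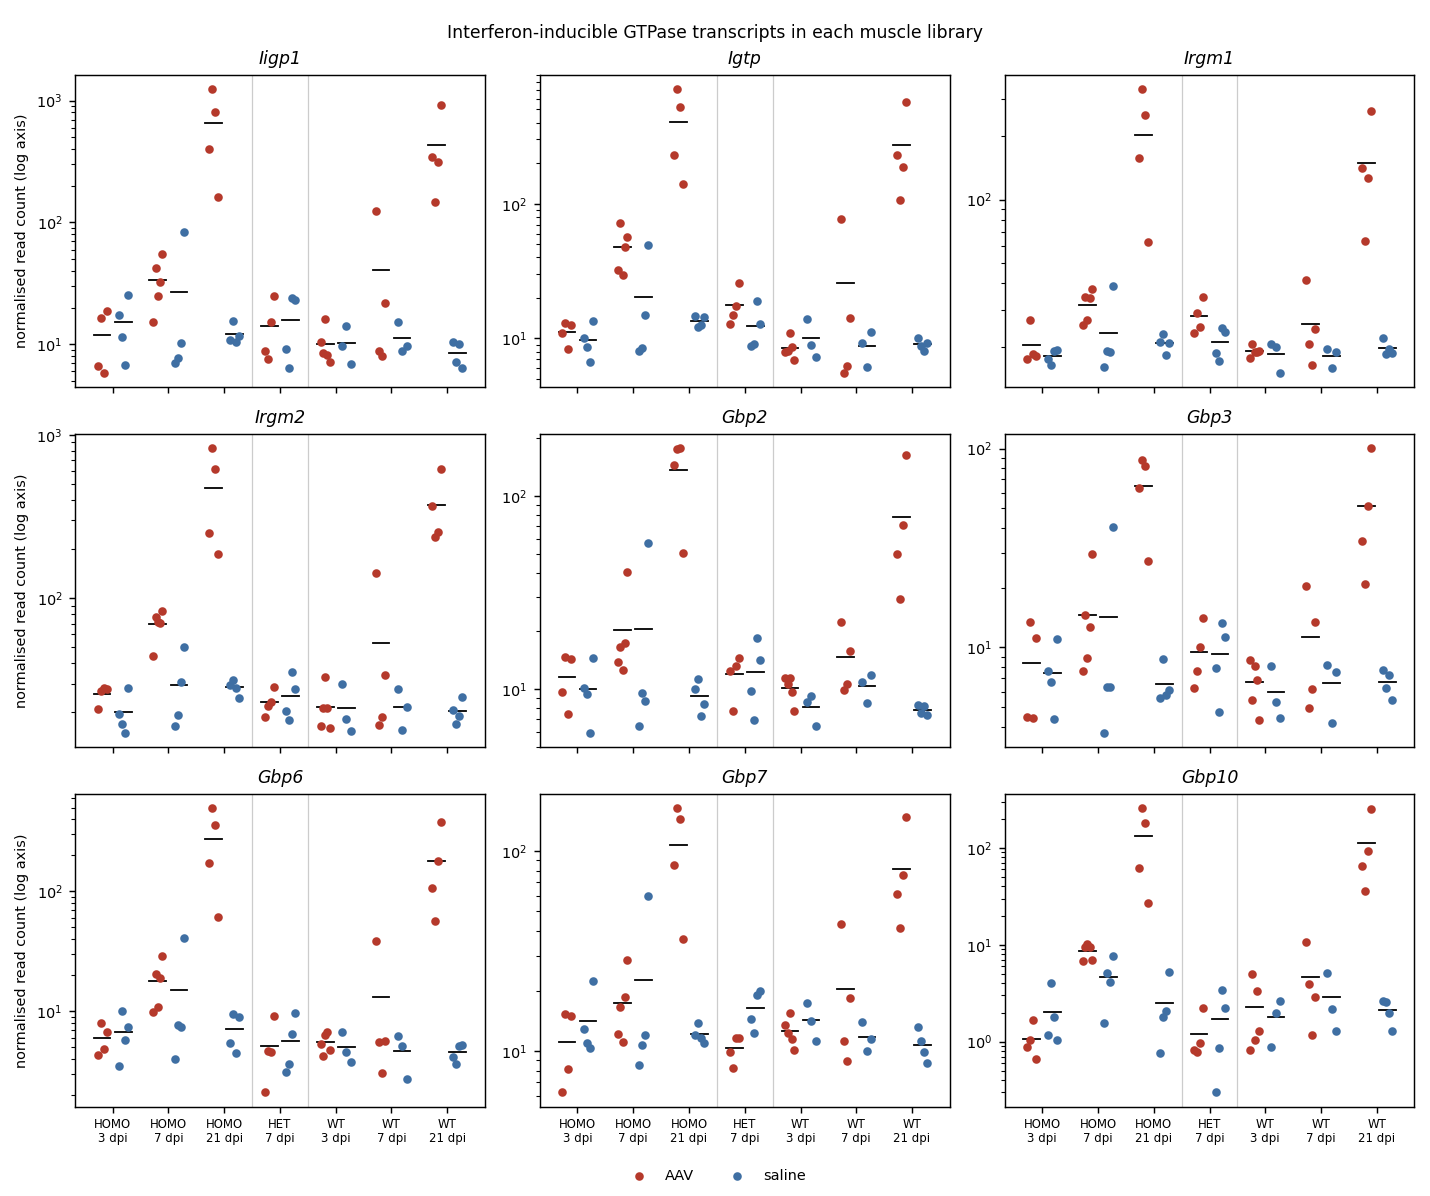
Normalised read count (log axis) of each GTPase gene in every library, by genotype and day; red points are AAV libraries, blue points saline libraries, and black bars group means. AAV and saline libraries separate in all 9 panels at 21 dpi in both genotypes, and 1 HOMO mKO saline library and 1 WT AAV library lie far above the rest of their groups at 7 dpi.

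WT muscle, which lacks the protease site in titin, showed a rise of the same genes at 21 dpi. Iigp1 had 343, 148, 313.5 and 924 in WT AAV muscle, against 10.4, 7.15, 10.1 and 6.39 in WT saline muscle. Irgm2 had 367, 236, 255 and 621 in WT AAV muscle, against 20.6, 17.0, 19.1 and 24.9 in WT saline muscle. Gbp2 had 50.2, 29.2, 71.3 and 163 in WT AAV muscle, against 8.29, 7.48, 8.14 and 7.33 in WT saline muscle. Replicate 4 was the highest and replicate 2 the lowest WT AAV library for each of these 3 genes, and none overlapped saline. All 9 genes were called as higher with limma, where 40.9% of all genes tested were called in either direction and 19.7% as higher, and for all 9 the libraries did not overlap, as for 16.4% of all genes. The changes were 5.22 ± 0.63 for Iigp1 (limma adjusted p = 9.10e-09), 4.83 ± 0.52 for Gbp10, 4.71 ± 0.55 for Gbp6, 4.50 ± 0.49 for Igtp and 4.01 ± 0.40 for Irgm2. They were 2.90 ± 0.42 for Gbp2, 2.68 ± 0.30 for Irgm1, 2.66 ± 0.41 for Gbp7 and 2.56 ± 0.46 for Gbp3 (limma adjusted p = 1.83e-05, the largest of the 9). The median was 4.01 over the 9 genes and -0.01 over all genes.

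The difference of the 21 dpi responses, HOMO mKO minus WT, was tested as an interaction and called for 0 of the 9 genes, against 5.62% of all genes (limma). At an unadjusted p under 0.05 the count was also 0, and edgeR and DESeq2 on the recovered whole reads called 0 as well. The widest interval belonged to Iigp1, whose response differed by 0.06 with a 95% interval of -1.72 to 1.85 on the log2 scale. Gbp2 had the largest difference, 0.73 (-0.46 to 1.93), and Irgm2 the lowest, -0.26 (-1.40 to 0.87). Igtp differed by 0.02 (-1.37 to 1.41), and Irgm1, with the narrowest interval, by 0.29 (-0.56 to 1.14). These intervals leave room for a several-fold difference in either direction for Iigp1 and for less than that for Irgm1.

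**Figure D3:**
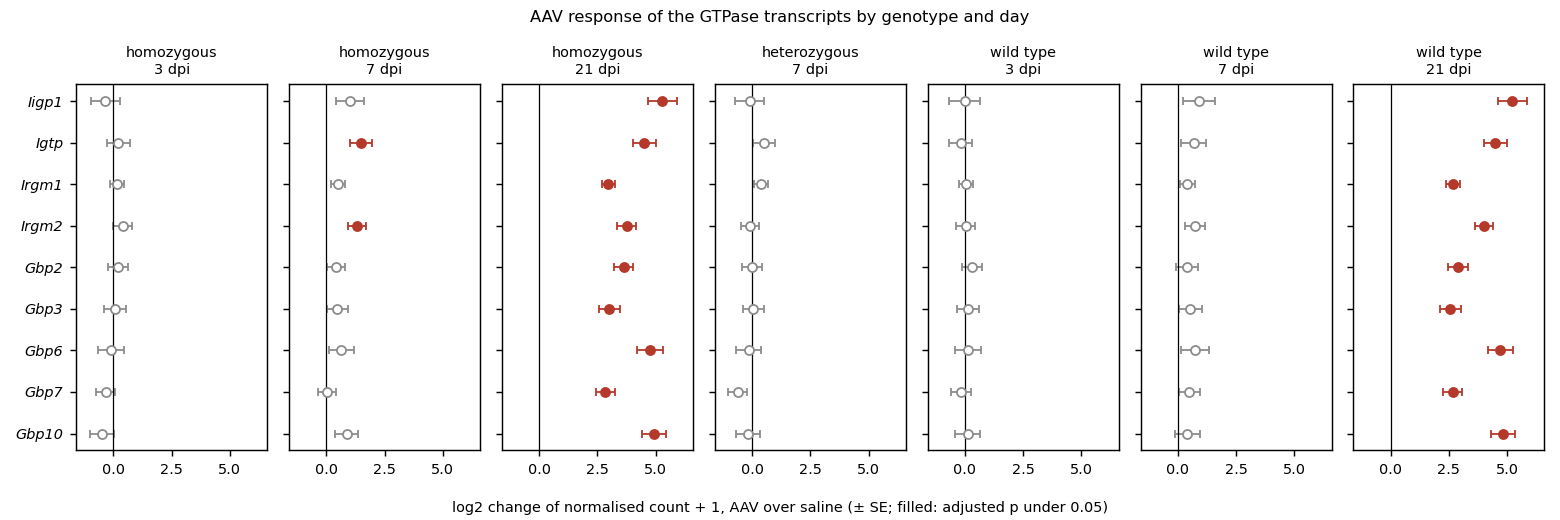
Change of each GTPase gene in AAV over saline muscle (log2 of normalised count + 1, points with SE bars), a panel for each genotype and day; filled points were called at an adjusted p under 0.05. All 9 points are filled at 21 dpi in homozygous and wild-type muscle, 2 are filled at 7 dpi in homozygous muscle, and 0 elsewhere.

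The 21 dpi AAV libraries differed several-fold among themselves, and did so for the 9 genes together. The summed level of the 9 genes was 1573, 4306, 3149 and 752 in HOMO mKO AAV replicates 1 to 4, and 1400.0, 738, 1353 and 3422 in WT AAV replicates 1 to 4. The genotypes' ranges overlapped almost whole. Irf1, the transcription factor gene of the interferon pathway, had 103, 101.2, 84.0 and 29.7 in the HOMO mKO AAV libraries and 32.5, 22.6, 47.8 and 72.8 in the WT AAV libraries. HOMO mKO replicate 4 and WT replicate 2 were the lowest of their genotype for Irf1 as for the GTPase sum, while HOMO mKO replicate 1 was level with replicate 2 for Irf1 and well below it for the sum. Ifng itself, the interferon gamma gene, had 99, 40, 93 and 13 reads in these HOMO mKO AAV libraries and 5, 7, 22 and 51 in the WT AAV libraries. HOMO mKO replicate 2, the highest for the GTPases, was not the highest for Ifng.

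Markers of other cells followed the order of the GTPase sum in part. HOMO mKO replicate 4 was lowest of its genotype for macrophage markers, for T and natural killer cell markers and for the GTPase sum, and WT replicate 2 was lowest for macrophage markers and the sum. The summed level of 13 T and natural killer cell markers was 185, 100.5, 139 and 51.3 in HOMO mKO AAV replicates 1 to 4 and 19.6, 73.9 and 99.6 in WT AAV replicates 1, 3 and 4. WT replicate 2 lay close to replicate 1 in these markers, while the GTPase sum was 738 in replicate 2 and 1400.0 in replicate 1. The 12 macrophage markers summed to 2409, 667, 943 and 283 in the HOMO mKO AAV libraries and 449, 298, 912 and 852 in the WT AAV libraries. HOMO mKO replicate 1 had the highest sum of macrophage markers and of T and natural killer cell markers but only the fourth highest GTPase sum of the 8. The viral transgene had 127, 465, 1103 and 866 in HOMO mKO AAV muscle and 1267, 999, 111 and 648 in WT AAV muscle, with no common order with the GTPases. Cd8a, a marker of cytotoxic T cells, had 988, 436, 711 and 209 reads in the HOMO mKO AAV libraries and 33, 25, 220 and 388 in the WT AAV libraries. The part of these cells and of the virus in the GTPase levels was not tested.

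**Figure D4:**
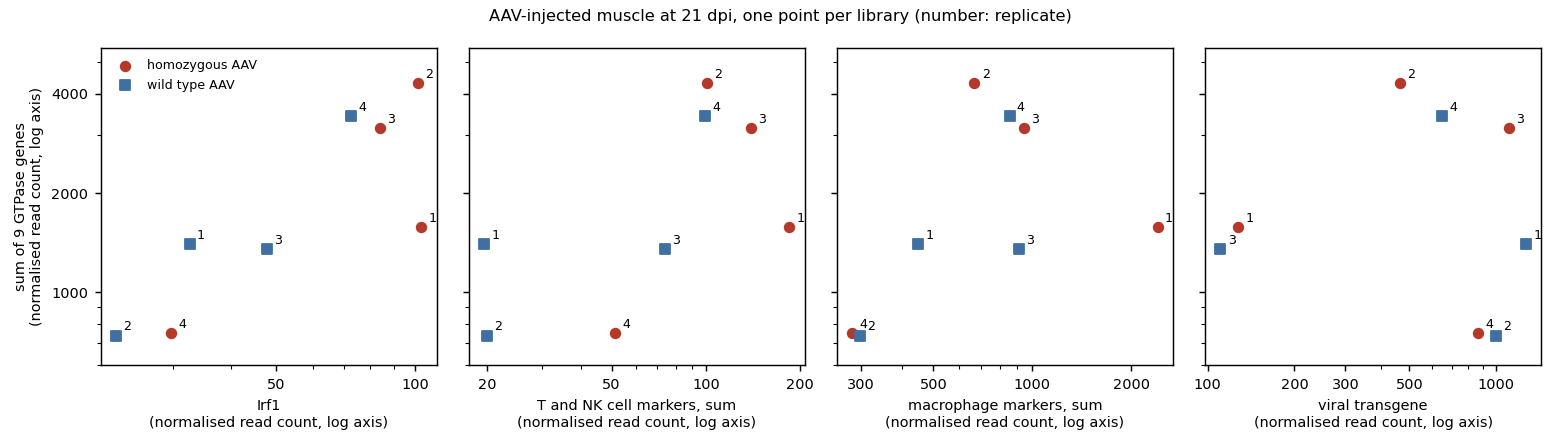
Sum of the 9 GTPase genes (vertical, log axis) in the 8 AAV libraries at 21 dpi against Irf1, the sum of T and natural killer cell markers, the sum of macrophage markers and the viral transgene (horizontal, log axes; all normalised read counts). Red circles are homozygous and blue squares wild-type libraries, numbered by replicate; the sums run from 738 to 4306, and the libraries with the lowest Irf1 and the lowest macrophage sum in each genotype also have its lowest GTPase sum.

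At 7 dpi the response of HOMO mKO muscle was smaller, and with all libraries in only Igtp and Irgm2 were called, a count that depends on 1 saline library. Igtp had 32.0, 71.9, 29.8, 48.1 and 56.2 in HOMO mKO AAV muscle, against 8.13, 8.53, 15.02 and 49.6 in HOMO mKO saline muscle. Irgm2 had 44.3, 77.2, 71.7, 70.1 and 83.0 in HOMO mKO AAV muscle, against 16.6, 19.4, 30.7 and 50.5 in HOMO mKO saline muscle. In both genes the AAV libraries lay above 3 of the 4 saline libraries, and saline replicate 4 fell among them. Igtp rose by 1.50 ± 0.46 (limma adjusted p = 0.00775) and Irgm2 by 1.31 ± 0.38 (limma adjusted p = 0.00437). These were the 2 of 9 called, against 43.1% of all genes in either direction and 20.6% as higher, and the median change of the 9 genes was 0.65.

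The remaining genes were not called at 7 dpi with all libraries in. Iigp1 had 15.2, 42.5, 24.8, 32.2 and 55.3 in HOMO mKO AAV muscle, against 6.96, 7.77, 10.2 and 83.0 in HOMO mKO saline muscle. Saline replicate 4 had more Iigp1 than any of these 5 AAV libraries, and the other 3 less than every one of them. Gbp2 had 13.8, 16.6, 12.6, 17.3 and 40.7 in HOMO mKO AAV muscle, against 6.38, 9.48, 8.67 and 57.0 in HOMO mKO saline muscle. Saline replicate 4 again was the highest, and AAV replicate 5 stood above its own group. The changes with all libraries were 1.00 ± 0.59 for Iigp1 (limma adjusted p = 0.17), 0.42 ± 0.40 for Gbp2 and 0.02 ± 0.39 for Gbp7.

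Without HOMO mKO saline replicate 4, limma called 7 of the 9 genes as higher in HOMO mKO AAV muscle at 7 dpi, against 40.1% of all genes in either direction and 19.1% as higher. Igtp then rose by 2.04 ± 0.47, Iigp1 by 1.80 ± 0.58, Irgm2 by 1.61 ± 0.40 and Gbp6 by 1.29 ± 0.52. Gbp3, Gbp2 and Irgm1 rose by 1.15 ± 0.41, 1.09 ± 0.36 and 0.77 ± 0.29. The adjusted p of these 7 lay between 0.00057 for Igtp and 0.0429 for Gbp6 (limma). Gbp10 (1.14 ± 0.53, limma adjusted p = 0.0824) and Gbp7 (0.63 ± 0.36, limma adjusted p = 0.168) were not called. The same 7 genes were called when WT AAV replicate 1 was left out too. The count at 7 dpi thus depends on this 1 saline library. It was singled out on its values of these same genes and was the highest of its saline group for all 9. Leaving it out raises each change, so the calls without it give no independent support. In the same comparison, with all libraries in, Ptprc, the pan-leukocyte gene CD45, rose by 2.18 ± 0.37 and all 10 macrophage markers that passed on the saline mean rose (limma), with macrophage sums of 293 to 475 in HOMO mKO AAV muscle and 70.4 to 109.5 in HOMO mKO saline muscle. The T and natural killer cell markers summed to 5.55 to 18.9 in HOMO mKO AAV muscle and 0.838 to 2.07 in HOMO mKO saline muscle. Their part in the GTPase values was not tested.

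The balance between the families differed between the libraries that stood apart. In HOMO mKO saline replicate 4 at 7 dpi the 4 IRGs summed to 222 and the 5 GBPs to 206, a ratio of 1.08, the lowest of all libraries of that day. Gbp4, a GBP outside the 9, reached 121.5 in it, with 240 reads or fewer in each of the other 3 saline libraries of the group against 2390 reads here, and Gbp5 reached 39.2, while the others had 3.47, 6.39 and 5.96. In WT AAV replicate 1 the IRGs summed to 387 and the GBPs to 135, a ratio of 2.85. The median ratio was 2.39 over the HOMO mKO AAV libraries of 7 dpi (lowest 1.73, highest 2.92) and 1.67 over the HOMO mKO saline libraries (1.08 to 1.97). In the saline library Irf1 was 26.8, where the other 3 had 9.88, 10.8 and 9.80. Its macrophage marker sum was 109.5, where they had 99.1, 70.4 and 99.2, and its T and natural killer cell marker sum 0.838, where they had 1.27, 1.16 and 2.07, with 0 reads of Cd8a, Ifng and the transgene. In WT AAV replicate 1 the T and natural killer cell marker sum was 4.18 and that of macrophage markers 138.5, the highest of the 4 libraries of its group, with 4 reads of Ifng. What set these libraries apart was not tested.

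**Figure D5:**
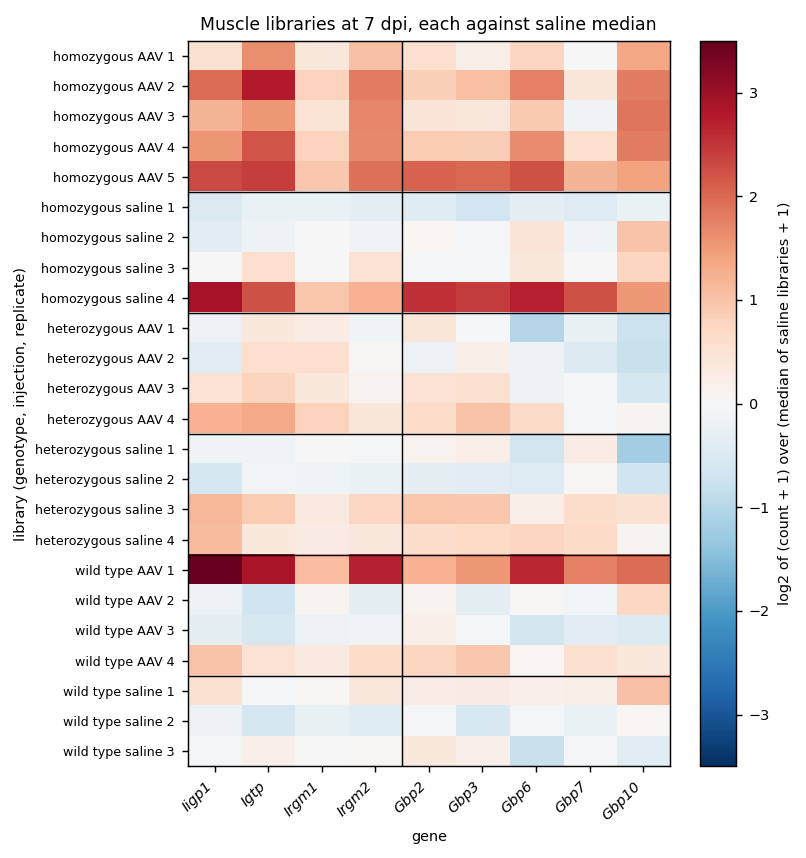
Colour shows the log2 of each gene's normalised count plus 1 over the median of the saline libraries plus 1, for the 24 libraries taken at 7 dpi (red higher, blue lower; IRGs left and GBPs right of the vertical line). The homozygous AAV libraries average from 0.42 for Gbp7 to 2.11 for Igtp, homozygous saline replicate 4 is reddest for Iigp1 (2.89) and Gbp6 (2.73), and wild-type AAV replicate 1 for Iigp1 (3.48) and Igtp (2.86).

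HET mKO muscle, in which 1 of the 2 titin copies carries the protease site, had no called change of these genes at 7 dpi. Igtp had 12.9, 15.01, 17.3 and 25.8 in HET mKO AAV muscle, against 8.79, 9.04, 18.9 and 12.7 in HET mKO saline muscle, and the groups overlapped. Irgm2 had 18.9, 21.9, 23.2 and 28.6 in HET mKO AAV muscle, against 20.4, 17.9, 35.4 and 27.8 in HET mKO saline muscle. Gbp7, which takes part in the oxidative defence of macrophages, had 9.92, 8.29, 11.6 and 11.6 in HET mKO AAV muscle, against 14.6, 12.4, 19.1 and 19.9 in HET mKO saline muscle. It was the only member whose libraries did not overlap here, with all AAV libraries lower, as for 21% of all genes, and its change was -0.61 ± 0.41 (limma adjusted p = 0.239). Limma called 0 of the 9 genes, against 40.4% of all genes, and 0 had an unadjusted p under 0.05 or were called by edgeR, DESeq2 or limma voom on whole reads. A fit of the HET mKO groups alone called Irgm1 as higher (0.39, limma adjusted p = 0.0338) and Gbp7 as lower (-0.61, limma adjusted p = 0.00623). The ratio of IRG to GBP sums, which has no test here, was 2.00 to 2.54 in HET mKO AAV muscle and 1.53 to 1.77 in HET mKO saline muscle and did not overlap. The macrophage markers did change in this comparison: all 10 that passed on the saline mean rose, with sums of 222 to 400 in HET mKO AAV muscle and 60.7 to 106 in HET mKO saline muscle. The T and natural killer cell markers summed to 2.53 to 5.51 in HET mKO AAV muscle and 1.55 to 3.12 in HET mKO saline muscle, and Ifng had 0 reads in all 4 HET mKO AAV libraries.

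Tested as interactions at 7 dpi, 0 of the 9 genes were called for HOMO mKO minus HET mKO (3.24% of all genes), for HOMO mKO minus WT (20.2%) and for HET mKO minus WT (20.2%), by limma. Irgm2 came nearest between HOMO mKO and HET mKO, with a difference of 1.41 ± 0.55 (95% interval 0.30 to 2.51, limma adjusted p = 0.18), and was the only one of the 9 with an unadjusted p under 0.05 in these 3 comparisons. EdgeR, DESeq2 and limma voom on the recovered whole reads called 0 of the 9 in each. A fit of these 4 groups alone called Irgm2 (limma adjusted p = 0.0359), as did the fit without both libraries that stood apart (difference 1.71, limma adjusted p = 0.02, against 3.26% of all genes). Without those libraries, Igtp (difference 2.14, limma adjusted p = 0.00783) and Irgm2 (1.55, limma adjusted p = 0.0225) were called for HOMO mKO minus WT, against 16.9% of all genes. Both libraries were picked on the values of these same 9 genes. Leaving out the high HOMO mKO saline library raises HOMO mKO minus HET mKO and HOMO mKO minus WT, and leaving out the high WT AAV library raises the latter. The calls without them are therefore a description and no independent support. Iigp1 differed by 1.10 between HOMO mKO and HET mKO with all libraries in (-0.64 to 2.83), an interval that spans no change.

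At 3 dpi the GTPase genes showed no called change in either genotype. Iigp1 had 6.61, 16.6, 5.81 and 18.9 in HOMO mKO AAV muscle, against 17.4, 11.5, 6.78 and 25.3 in HOMO mKO saline muscle, and the groups overlapped. Igtp had 10.99, 12.9, 8.42 and 12.5 in HOMO mKO AAV muscle, against 10.2, 8.69, 6.64 and 13.5 in HOMO mKO saline muscle. Limma called 0 of the 9 genes in HOMO mKO muscle, against 34.6% of all genes, with changes between -0.47 ± 0.52 for Gbp10 and 0.39 ± 0.40 for Irgm2. In the same libraries all 10 macrophage markers that passed on the saline mean rose, with sums of 336 to 896 in HOMO mKO AAV muscle and 71.5 to 165 in HOMO mKO saline muscle, and the T and natural killer cell markers summed to 1.295 to 4.17 in HOMO mKO AAV muscle and 1.07 to 1.75 in HOMO mKO saline muscle. Adgre1, the macrophage surface receptor F4/80, had 21.9, 31.9, 30.5 and 13.2 in HOMO mKO AAV muscle at 3 dpi, against 4.72, 1.66, 3.93 and 5.78 in HOMO mKO saline muscle. Macrophage marker transcripts had risen at a time when 0 of the GTPases were called, which does not show that the GTPases were unchanged. The part of macrophages in the GTPase values was not tested. In WT muscle 0 of the 9 were called at 3 dpi and at 7 dpi, and 0% of all genes were called on either day. Their changes at 3 dpi lay between -0.19 ± 0.50 for Igtp and 0.30 ± 0.43 for Gbp2. The difference HOMO mKO minus WT at 3 dpi was called for 0 of the 9, against 9.75% of all genes (limma), with 0 at an unadjusted p under 0.05 in any of these 4 comparisons and 0 called by edgeR, DESeq2 or limma voom on the recovered whole reads.

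In WT muscle at 7 dpi, no change of these genes was called and 1 AAV library stood apart. Iigp1 had 125, 8.80, 8.04 and 21.6 in WT AAV muscle, against 15.4, 8.86 and 9.69 in WT saline muscle. Replicate 1 was far above the saline libraries, replicate 4 somewhat above them, and replicates 2 and 3 at or below their range. The change was 0.90 ± 0.68 with all libraries (limma adjusted p = 1.00) and 0.07 ± 0.65 without replicate 1. Across the 9 genes the median change was 0.54 with replicate 1 and 0.07 without both libraries that stood apart. The viral transgene was not highest in that library and had 249, 158, 227 and 324 in WT AAV replicates 1 to 4.

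The response grew between 7 and 21 dpi in both genotypes. For HOMO mKO muscle the 21 dpi response exceeded the 7 dpi response for all 9 genes, against 13.8% of all genes called and 7.54% in this direction (limma). Iigp1 gained 4.28 ± 0.86 on the log2 scale (limma adjusted p = 0.000587), Gbp6 4.10 ± 0.75, Gbp10 4.05 ± 0.71, Gbp2 3.21 ± 0.58 and Igtp 3.02 ± 0.67. Gbp7 gained 2.82 ± 0.56, Gbp3 2.54 ± 0.63, Irgm1 2.47 ± 0.41 and Irgm2 2.44 ± 0.55, and without HOMO mKO saline replicate 4 the 9 gains lay between 1.87 and 3.79, all 9 called, against 11.7% of all genes. For WT muscle all 9 were called too, against 19.2% of all genes and 10.5% in this direction, from 4.41 ± 0.76 for Gbp10 (limma adjusted p = 0.000105) to 2.02 ± 0.68 for Gbp3 (limma adjusted p = 0.0293). The WT call of Gbp3 was lost in limma voom (adjusted p = 0.094) and when any of 7 single libraries was left out. The gain between 3 and 7 dpi was called for 0 of the 9 genes in HOMO mKO muscle (5.96% of all genes) and in WT muscle (0%), with 0 at an unadjusted p under 0.05 in either and 0 called by edgeR, DESeq2 or limma voom. Without both libraries that stood apart, the HOMO mKO gain of Igtp between 3 and 7 dpi was 1.84 and called (limma adjusted p = 0.0279), against 4.91% of all genes. Those libraries were picked on their values of these same genes, and leaving out the high HOMO mKO saline library raises this gain. Each day has its own saline libraries, and no label gives a batch, so the day and any batch of library preparation cannot be told apart.

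Without virus the genotypes differed little. In saline muscle limma called 0 of the 9 genes for HOMO mKO against WT at 3 dpi (2.28% of all genes), 7 dpi (2.08%) and 21 dpi (3.32%), for HET mKO against WT at 7 dpi (0.2%) and for HOMO mKO against HET mKO at 7 dpi (5.12%). At 21 dpi Igtp had 14.7, 12.2, 12.6 and 14.4 in HOMO mKO saline muscle, against 10.2, 8.82, 8.14 and 9.21 in WT saline muscle. Iigp1 had 10.9, 15.7, 10.4 and 11.7 in HOMO mKO saline muscle, against 10.4, 7.15, 10.1 and 6.39 in WT saline muscle. All HOMO mKO saline libraries were above all WT saline libraries for both genes, which was so for 7.72% of all genes. For Iigp1 the groups all but touched, at 10.4 in HOMO mKO saline replicate 3 and 10.39 in WT saline replicate 1. The difference was 0.52 ± 0.49 for Igtp (limma adjusted p = 0.731) and 0.48 ± 0.63 for Iigp1 (limma adjusted p = 0.827). A fit of these 2 groups alone called Igtp (0.52, limma adjusted p = 0.00841) and Irgm2 (0.47, limma adjusted p = 0.0236). Gbp10 was the only member with an unadjusted p under 0.05 in any of the 5 comparisons, at 1.08 ± 0.52 for HOMO mKO against HET mKO (limma adjusted p = 0.272).

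Taking all 14 groups by the median of the 9-gene sum, HOMO mKO AAV muscle at 21 dpi was highest at 2361 (752 to 4306), followed by WT AAV muscle at 21 dpi at 1376 (738 to 3422), and these 2 overlapped. HOMO mKO AAV muscle at 7 dpi came next at 261.5 (167 to 367), below every 21 dpi AAV library. The other 11 groups had medians of 88.3 to 119. Their ranges overlapped with each other, except that HOMO mKO saline muscle at 21 dpi (101 to 127.5) lay above WT saline muscle at 21 dpi (82.8 to 99.3). Per kilobase of exon, HOMO mKO AAV muscle at 21 dpi had 198 ± 131 of Igtp, 128 ± 82.4 of Irgm2 and 113 ± 82.3 of Iigp1 (mean ± SD, n = 4). WT AAV muscle at 21 dpi had 135 ± 101 of Igtp, 100.2 ± 48.1 of Irgm2 and 74.2 ± 58.2 of Iigp1 (mean ± SD, n = 4). These 3 genes had the highest means in both genotypes. Within a library and per kilobase, Igtp exceeded Iigp1 in 4 of 4 HOMO mKO AAV libraries (1.63 to 2.49 times) and 4 of 4 WT AAV libraries (1.72 to 2.08 times). Before division by the merged exon length the order was the reverse. Iigp1 then averaged 657 and Igtp 400.5 in HOMO mKO AAV muscle, and 432 and 273.5 in WT AAV muscle. The orders that follow are again per kilobase. Igtp exceeded Irgm2 in 4 of 4 HOMO mKO AAV and 3 of 4 WT AAV libraries, and Irgm2 exceeded Iigp1 in 3 of 4 HOMO mKO AAV and 4 of 4 WT AAV libraries. Gbp2 (54.8 ± 23.7), Gbp6 (45.8 ± 32.4), Irgm1 (34.8 ± 20.3) and Gbp10 (34.0 ± 27.3) came next in HOMO mKO AAV muscle, and Gbp3 (19.9 ± 8.32) and Gbp7 (19.2 ± 10.3) stood lowest. In WT AAV muscle the order was Gbp2 (31.2 ± 23.5), Gbp6 (30.3 ± 23.7), Gbp10 (28.8 ± 25.1), Irgm1 (25.6 ± 14.4), Gbp3 (15.8 ± 10.6) and Gbp7 (14.6 ± 8.38). Among the neighbours from Gbp2 downward the order changed between libraries of both genotypes, except that Irgm1 exceeded Gbp3 in 4 of 4 WT AAV libraries. Iigp1, which stood below Irgm1 in the saline order, exceeded it in all AAV libraries of 21 dpi, by 2.55 to 3.73 times in HOMO mKO and by 2.32 to 3.49 times in WT muscle.

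The members moved together across libraries. Over the 56 libraries the pairwise Pearson correlation of log2 values was between 0.855 (Gbp3 with Gbp10) and 0.982 (Igtp with Irgm2), which describes libraries that share groups, depth and, for several pairs, sequence. Over the 40 libraries of 3 and 7 dpi it ran from 0.425 (Gbp3 with Gbp10) to 0.94 (Gbp2 with Gbp3), with 0.928 for Igtp and Irgm2. Igtp and Irgm2 were the closest pair over all libraries, and Gbp2 and Gbp3 were the closest over those of 3 and 7 dpi. Of the 50-base stretches of Igtp transcripts 11.8% occurred in Irgm2, and the promoters of these 2 genes shared a run of 61 bases. The longest run shared by the Gbp2 and Gbp3 promoters was 9 bases. The part of shared sequence in these correlations was not tested. Gbp6 and Gbp10, which share sequence as given above, had 0.952 over all libraries and 0.751 over those of 3 and 7 dpi.

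Of 15 other IRG and GBP genes tested, 11 passed the filter on low values on the mean of the saline libraries alone, as all 9 members did. Of these 11, 10 rose in HOMO mKO muscle at 21 dpi, with a median change of 2.22, and 9 rose in WT muscle (median 1.72). Of all genes tested, 29.7% were called as higher in HOMO mKO and 19.7% in WT muscle. Ifi47 rose by 3.80 ± 0.42 in HOMO mKO and by 2.99 ± 0.42 in WT muscle. The other 4, Gm12250, Gbp8, Gm4951 and Gbp2b, passed only through the AAV libraries where they are high, so a difference was set by the filter and their values are a description. Gm12250 averaged 22.1 ± 13.6 in HOMO mKO AAV muscle and 0.197 ± 0.160 in HOMO mKO saline muscle (SD, n = 4 each). Gbp8 averaged 14.9 ± 9.81 in HOMO mKO AAV muscle and 0.112 ± 0.0921 in HOMO mKO saline muscle (SD, n = 4 each). Irgq, a quasi-GTPase of the IRG family, changed by 0.02 ± 0.12 in HOMO mKO muscle and 0.06 ± 0.12 in WT muscle and was not called. At 7 dpi, 2 of the 11 rose in HOMO mKO muscle, namely Ifi47 (1.21 ± 0.40) and F830016B08Rik (2.46 ± 0.59), where edgeR and DESeq2 called 1 of the 15 tested. Limma called 20.6% of all genes as higher there. In HET mKO muscle limma called 0 of the 15, against 40.4% of all genes, with 0 at an unadjusted p under 0.05 and 0 by edgeR and DESeq2.

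The signalling genes upstream moved in part. Of 10 interferon gamma signalling genes that passed the filter on the saline mean, 7 rose and 2 fell in HOMO mKO muscle at 21 dpi, and 7 rose and 2 fell in WT muscle. Of all genes tested, 59.3% were called in HOMO mKO muscle, 29.7% as higher, and 40.9% in WT muscle, 19.7% as higher. Irf1 rose by 2.57 ± 0.27 in HOMO mKO and 1.90 ± 0.27 in WT muscle. Irf8, an IRF of macrophages and dendritic cells, rose by 3.10 ± 0.27 in HOMO mKO and 2.15 ± 0.27 in WT muscle. Ciita, the master regulator of class II histocompatibility genes, passed the filter only through AAV libraries and averaged 26.8 ± 15.7 in HOMO mKO AAV muscle and 0.537 ± 0.290 in HOMO mKO saline muscle (SD, n = 4 each). The receptor chain Ifngr2 fell by 0.85 in HOMO mKO and by 0.49 in WT muscle, and the kinase gene Jak2 fell by 0.71 in HOMO mKO and by 0.37 in WT muscle. Ifng was too low for the test. It had 0 reads in 34 of the 40 libraries of 3 and 7 dpi and 1 to 5 reads in the other 6. All 15 interferon gamma target genes that passed on the saline mean rose at 21 dpi in both genotypes, with H2-Eb1 at 4.69 ± 0.34, H2-Ab1 at 4.70 ± 0.36 and Psmb10 at 2.79 ± 0.22 in HOMO mKO muscle. At 7 dpi, 11 of the 15 rose in HOMO mKO muscle, against 43.1% of all genes called in either direction and 20.6% as higher. In HET mKO muscle 5 of the 15 rose, against 40.4% of all genes called in either direction, and the share as higher is not given. The 5 in HET mKO muscle were Tapbp, H2-Aa, H2-Ab1, H2-Eb1 and Cd74, while Cxcl9, Psmb8, Psmb9, Psmb10, Tap1, B2m and H2-K1 were not called. The same 5 rose in HOMO mKO muscle at 3 dpi, where 34.6% of all genes were called in either direction. Cxcl10 and Ubd passed the filter only through AAV libraries and are outside the 15. Their changes in HET mKO muscle at 7 dpi were 2.04 ± 0.37 and 0.01 ± 0.29. In HOMO mKO muscle at 7 dpi Cxcl10 changed by 1.63 ± 0.36 and Ubd by -0.0008 ± 0.28.

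Genes of the type I interferon response rose as well. All 12 that passed on the saline mean rose at 21 dpi in both genotypes, with a median change of 1.52 in HOMO mKO and 1.30 in WT muscle, where the GTPases had 3.75 in HOMO mKO and 4.01 in WT muscle. Of all genes tested, 29.7% were called as higher in HOMO mKO and 19.7% in WT muscle. Isg15, which encodes a ubiquitin-like modifier, rose by 1.86 ± 0.37 in HOMO mKO and 1.96 ± 0.37 in WT muscle. At 7 dpi 8 of the 12 rose in HOMO mKO muscle, against 20.6% of all genes called as higher with all libraries in. Of the 9 GTPases, 2 were called there with all libraries in and 7 without HOMO mKO saline replicate 4. Isg15 rose by 1.27 ± 0.35 in HOMO mKO muscle on that day (limma adjusted p = 0.00266) and had a change of 0.57 ± 0.37 in HET mKO muscle (limma adjusted p = 0.217). Limma called 0 of the 15 tested in HET mKO muscle, against 40.4% of all genes, where 2 had an unadjusted p under 0.05, edgeR called 2 and DESeq2 called 3. At 3 dpi 1 of the 12, Oas2, rose in HOMO mKO muscle, with 0 of the GTPases called, against 34.6% of all genes. Oas1a, Mx1 and Oas3 passed the filter only through AAV libraries and are outside the 12. Their changes in HOMO mKO muscle at 3 dpi were 1.60 ± 0.40, 1.14 ± 0.33 and 1.05 ± 0.42.

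Genes that work beside the GTPases were counted too. Of 9 inflammasome genes measured, only Gsdmd, the pore-forming gasdermin, passed the filter on the saline mean, and it rose by 2.13 ± 0.27 in HOMO mKO and 1.47 ± 0.27 in WT muscle at 21 dpi. Casp4, which encodes the caspase that GBPs help to activate on bacterial lipopolysaccharide, averaged 5.79 ± 3.44 in HOMO mKO AAV muscle and 0.757 ± 0.319 in HOMO mKO saline muscle (SD, n = 4 each). The 12 autophagy genes counted were those of the conjugation system, which guides IRG and GBP proteins to their target membranes, with Sqstm1 and Becn1. Of these 12 genes, 4 rose and 2 fell in HOMO mKO muscle at 21 dpi. In WT muscle 2 rose and 1 fell. Of all genes tested, 59.3% were called in either direction in HOMO mKO and 40.9% in WT muscle, and neither count exceeded that share. The median change of the 12 genes was -0.05 in HOMO mKO and -0.02 in WT muscle. Map1lc3b fell by 0.58 and Map1lc3a rose by 0.88 ± 0.18 in HOMO mKO muscle.

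Markers of other cells moved with the 21 dpi rise. Ptprc had 177, 62.6, 83.7 and 26.1 in HOMO mKO AAV muscle, against 3.25, 3.01, 1.89 and 1.20 in HOMO mKO saline muscle, and 31.8, 22.6, 69.8 and 57.7 in WT AAV muscle, against 4.51, 1.085, 2.77 and 3.56 in WT saline muscle. Of all genes tested at 21 dpi, 59.3% were called in either direction in HOMO mKO and 40.9% in WT muscle. All 10 macrophage markers that passed on the saline mean rose in both genotypes. None of the T and natural killer cell markers passed on that mean, so they are given as sums with no count of calls. The 13 T and natural killer cell markers measured summed to 51.3 to 185 in HOMO mKO AAV muscle, against 1.47 to 1.89 in HOMO mKO saline muscle, and to 19.6 to 99.6 in WT AAV muscle, against 0.695 to 2.41 in WT saline muscle. The macrophage markers summed to 283 to 2409 in HOMO mKO AAV muscle, against 40.02 to 97.9 in HOMO mKO saline muscle, and to 298 to 912 in WT AAV muscle, against 63.9 to 79.0 in WT saline muscle. Gzmb had 0 reads in all 4 HOMO mKO saline libraries and Prf1 in all 4 WT saline libraries of that day. All 8 endothelial markers fell in both genotypes, and of 8 fast-fibre genes 7 fell in HOMO mKO and 5 in WT muscle, a direction that quantile normalisation turned, with 3 higher and 2 lower in HOMO mKO and 1 higher in WT muscle. The B and plasma cell markers had sums of 95.8 to 576 in HOMO mKO AAV muscle, against 22.1 to 31.9 in HOMO mKO saline muscle, and of 227 to 852 in WT AAV muscle, against 36.4 to 51.0 in WT saline muscle. Which cells held the GTPase transcripts was not tested.

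Among all genes outside the 9, the transcripts whose log2 values over the 56 libraries were most like the members' mean included Cxcl9 (Pearson r = 0.969), Irf1 (0.966), Parp14 (0.965), Gm12185 (0.96), Gm12250 (0.96), H2-Q4 (0.96), B2m (0.959), H2-T23 (0.957) and Tgtp2 (0.955). Over the 40 libraries of 3 and 7 dpi alone, Irf1 (0.886) and Parp14 (0.863) again were among them, with Gbp4 (0.859) and Tgtp2 (0.855).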

How the data were processed

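Total RNA of whole tibialis anterior muscle was sequenced with a directional library kit, per the labels' protocols, giving 56 libraries in 14 groups taken from the titles. The deposited table gives a normalised read count per gene and library (a signal scaled by the authors), and per the submitters' processing notes it involved FastQC, Bowtie, RSEM, limma and mouse build GRCm38 (mm10), with no versions given. No source used here states which strand setting RSEM was run with, and it divides reads that match several genes by estimation. Its values were those of (reads + 0.5) per 1 M (mega) reads of an effective library size, 0.858 to 1.493 times the read total, and solving for reads gave whole numbers for 99.9986% of values within 0.02 reads. Total depth was 6.9 M to 27.2 M reads, which left few reads for the lowest genes (5 of Gbp10 in the library where it was lowest).

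Gene positions came from GENCODE M21, where 14854 of the 14871 identifiers were found, and promoters from RefSeq. From the table, log2(value + 1) was fitted with limma 3.58.1 in R 4.3.3, with a mean for each of the 14 groups over all 56 libraries and a trended prior. The test took the 13017 genes whose mean was at least 1 in 1 M of the column sum and left out 1853, besides the transgene row, p-values were adjusted by the Benjamini-Hochberg method over all of them, and a gene was called at an adjusted p under 0.05. Counts over the gene lists take genes that pass the same filter on the mean of the saline libraries. Fold changes on this scale understate those of low genes. The steps were tested on simulated data. Alternatives were other pseudocounts and filters, median-of-ratios rescaling, quantile normalisation, fits of the compared groups alone, 3 fits of the recovered whole reads (edgeR 4.0.16, limma voom and DESeq2 1.42.0), the replicate number as a block, and each replicate left out in turn. Replicate numbers come from the titles. Same-numbered AAV and saline libraries deviated together in every pair, with correlations over 0.1, in HOMO mKO muscle at 21 dpi (0.165 to 0.233 over 4 pairs) and HET mKO muscle at 7 dpi (0.128 to 0.178 over 4 pairs), and not in every pair of the other comparisons.

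The 9 genes and the gene lists were chosen with earlier results of these data known. All 9 are described in each main comparison, beside Ifng, Irf1, Cd8a, Adgre1, Ptprc, Isg15 and the transgene. Up to 4 genes per list are those with the smallest p in HOMO mKO muscle at 21 dpi, and others named were chosen after their values were seen. Of the genes this rule names, 1 is not reported here.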

Additional observations from a re-analysis of the deposited data

Results flagged for a closer look

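Of 108 sets of values (1 gene in 1 group of 4 or 5 libraries), 8 held a library that stood off from the rest by Dixon's gap test, where chance gives about 1 in 20. HOMO mKO saline replicate 4 at 7 dpi accounted for 3 of them, as the highest library for Iigp1 (82.95, others 6.965 to 10.21), Gbp2 (56.99, others 6.383 to 9.477) and Gbp7 (59.93, lowest of the others 8.545). In HOMO mKO AAV muscle at 3 dpi, replicate 2 was high for Irgm1 (26.99, others 17.62 to 18.6) and replicate 1 low for Irgm2 (21.02, others 27.09 to 28.4). In HOMO mKO AAV muscle at 7 dpi, replicate 1 was low for Irgm2 (44.34, others 70.05 to 82.96) and replicate 5 high for Gbp2 (40.74, others 12.56 to 17.32). In HOMO mKO AAV muscle at 21 dpi, replicate 4 was low for Gbp2 (50.89, others 146.3 to 177.5).

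The response to AAV differed between 21 and 7 dpi for all 9 genes in both genotypes when the difference itself was tested as an interaction (limma). In HOMO mKO muscle the 21 dpi response exceeded the 7 dpi response on the log2 scale by 4.28 for Iigp1, 3.02 for Igtp, 2.47 for Irgm1, 2.44 for Irgm2, 3.21 for Gbp2, 2.54 for Gbp3, 4.10 for Gbp6, 2.82 for Gbp7 and 4.05 for Gbp10. In WT muscle it did so by 4.32 for Iigp1, 3.81 for Igtp, 2.27 for Irgm1, 3.29 for Irgm2, 2.50 for Gbp2, 2.02 for Gbp3, 3.97 for Gbp6, 2.17 for Gbp7 and 4.41 for Gbp10. The adjusted p ran from 4.24e-05 to 0.00538 in HOMO mKO muscle and from 0.000105 to 0.0293 in WT muscle (limma).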

How the results depend on the processing

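The 21 dpi calls held under each alternative run: 9 of 9 genes were higher in AAV muscle in HOMO mKO and in WT muscle. No log2 change of these 9 genes that was called turned its direction under the alternatives run. With the replicate block, 9 genes were called in HOMO mKO and 9 in WT muscle at 21 dpi, 2 in HOMO mKO and 0 in HET mKO muscle at 7 dpi, so the pairing changed no count of these genes. At 7 dpi the HOMO mKO count was 2 to 7 when single libraries were left out, 7 without HOMO mKO saline replicate 4, and also 7 without both libraries that stood apart, an alternative chosen after seeing the data. Without both, 2 genes were called for HOMO mKO minus WT at 7 dpi, 1 for HOMO mKO minus HET mKO and 1 for the HOMO mKO gain between 3 and 7 dpi. Leaving out the high HOMO mKO saline library raises each of these differences, so these calls give no independent support. A fit of only the compared groups called 2 in HET mKO muscle at 7 dpi, 1 for HOMO mKO minus HET mKO and 2 for HOMO mKO against WT saline muscle at 21 dpi. It also called Gbp10 in HOMO mKO muscle at 7 dpi (limma adjusted p = 0.0254) and lost the gain of Gbp3 between 7 and 21 dpi in HOMO mKO muscle (limma adjusted p = 0.054). The WT gain between 7 and 21 dpi was called for 8 to 9 genes when single libraries were left out. The cause of these changes was not tested.

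Over all genes, quantile normalisation shifted the median HOMO mKO change at 21 dpi to -0.12, with 3234 genes higher and 4703 lower, against 3863 and 3851 as reported, and the changes of the 9 genes are far larger than that shift. Counts over all genes moved most for HOMO mKO minus WT at 21 dpi (732 as reported, 121 in the fit of the compared groups), the HOMO mKO gain between 7 and 21 dpi (1798, 615), its gain between 3 and 7 dpi (776, 510), and the WT gain between 7 and 21 dpi (2495, 1534 in limma voom). For HOMO mKO minus WT at 3 dpi the block gave 801 (1269 as reported). In saline muscle it gave 587, 668 and 788 at 3, 7 and 21 dpi for HOMO mKO against WT (297, 271 and 432) and 1196 for HOMO mKO against HET mKO (667), and HET mKO against WT ran from 11 to 62 (26). DESeq2 called 8, 7 and 5 genes where limma called 0, for WT muscle at 3 dpi, at 7 dpi and the gain between them. Gbp10, with 5 reads in the library where it was lowest, is the gene that depth limits most.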

Other observations

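Gbp2b, a GBP neighbour outside the 9 genes, was detected in some libraries of a group and near 0 in others. In HET mKO muscle at 7 dpi it had 80 reads in AAV replicate 2 and at most 10 in the other AAV libraries, and 58 reads in saline replicate 2 and at most 4 in the other saline libraries. In HOMO mKO muscle at 3 dpi it had 42 reads in AAV replicate 3 and at most 3 in the other AAV libraries, and 47 reads in saline replicate 3 and at most 3 in the other saline libraries. In WT muscle at 3 dpi it had 0 reads in AAV replicate 2 and 25 to 76 in the other AAV libraries, and 40 to 60 in the saline libraries. At 21 dpi it had 87 to 949 reads in HOMO mKO AAV libraries, against 0 to 1 in HOMO mKO saline libraries, and 66 to 475 in WT AAV libraries, against 0 to 3 in WT saline libraries.

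F830016B08Rik, a predicted IRG, stood at 49.4 in WT AAV replicate 1 at 7 dpi and at 0.686 to 1.95 in the other 3 WT AAV libraries of that day. Its change at 21 dpi was 4.49 ± 0.62 in HOMO mKO and 5.86 ± 0.62 in WT muscle (log2, SE).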
